A study of Mus musculus with 18 samples.

Results

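The 8 genes described here, Hmgcs1, Sqle, Idi1, Insig1, Fdft1, Dhcr7, Lss and Srebf2, were all among the 15329 genes listed for the hippocampus. They were chosen by name as genes of cholesterol synthesis and uptake, with earlier results of these data known. Shares of all genes printed beside their counts are therefore a description. Of these genes 6 encode enzymes of the synthesis pathway and Srebf2 and Insig1 encode its regulators. No receptor or carrier of cholesterol uptake is among them, so uptake genes are given from a separate list below. Hippocampal RNA from 18 C57BL/6J mice, 8 to 10 weeks old (male, by the study's description of the maze), was sequenced as 1 library per mouse, with 3 mice in each of 6 groups. Mice that were wild-type (WT) or knockout (KO) for Ccny were either untrained (WT_Basal and KO_Basal), trained to find a hidden platform in the Morris water maze (original learning, WT_OL and KO_OL), or trained in the same way and then again with the platform moved (reversal learning, WT_RL and KO_RL). Ccny encodes cyclin Y, a membrane-associated cyclin also found at synapses, and the study asked how its loss bears on the response of the hippocampus to both kinds of learning. The part of the gene that the knockout removes is not given in the sources used here. The labels do not say how long after the last swim, or at what hour, tissue was taken. No group swam without a hidden platform, so learning cannot be told apart from swimming, handling or the days that passed. Changes named after original or reversal learning are differences between these groups.

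Cells make cholesterol from acetyl-CoA through the mevalonate pathway. HMG-CoA synthase (Hmgcs1) acts near its start, isopentenyl diphosphate isomerase (Idi1) makes the building blocks of longer chains, squalene synthase (Fdft1) and squalene epoxidase (Sqle) commit them to sterols, lanosterol synthase (Lss) closes the rings and 7-dehydrocholesterol reductase (Dhcr7) catalyses a last step. Most of these genes are targets of SREBP-2, the transcription factor encoded by Srebf2, which is held in the endoplasmic reticulum by INSIG proteins (Insig1) and the escort protein SCAP while membrane sterol is plentiful. The brain makes nearly all of its own cholesterol because lipoproteins of the blood do not cross the blood-brain barrier. Astrocytes and myelin-forming oligodendrocytes are its main producers in the adult, and neurons need it for synapses and vesicles.

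Since SREBP-2 binds sterol regulatory elements near the start sites of its targets, often beside a CCAAT box bound by NF-Y, the start regions of the 5 genes that changed after reversal learning are shown. They come from RefSeq on GRCm38.p6 and run from 250 bases before to 50 bases after the start, all on the + strand, and 6 of the 8 genes had an entry (Fdft1 and Sqle had none). They lie at chr13:119690101-119690400 (Hmgcs1), chr13:8885356-8885655 (Idi1), chr5:28071162-28071461 (Insig1), chr10:76531355-76531654 (Lss) and chr15:82147019-82147318 (Srebf2). Capitals mark each sterol element TCACNCCAC and each CCAAT, searched on both strands, so that ATTGG is a CCAAT box on the other strand, and in these sequences no match overlapped another.
Hmgcs1: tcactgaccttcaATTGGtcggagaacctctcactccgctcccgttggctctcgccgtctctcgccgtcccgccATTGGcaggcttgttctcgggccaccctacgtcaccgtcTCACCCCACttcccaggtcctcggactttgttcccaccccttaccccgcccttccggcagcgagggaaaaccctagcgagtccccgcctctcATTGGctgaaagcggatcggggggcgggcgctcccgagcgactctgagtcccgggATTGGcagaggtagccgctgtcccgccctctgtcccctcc
Idi1: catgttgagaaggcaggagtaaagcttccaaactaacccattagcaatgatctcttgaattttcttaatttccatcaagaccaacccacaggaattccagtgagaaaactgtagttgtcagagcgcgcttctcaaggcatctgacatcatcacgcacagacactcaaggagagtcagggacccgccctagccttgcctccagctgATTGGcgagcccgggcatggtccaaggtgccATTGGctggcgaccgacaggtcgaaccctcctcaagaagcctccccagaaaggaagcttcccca
Insig1: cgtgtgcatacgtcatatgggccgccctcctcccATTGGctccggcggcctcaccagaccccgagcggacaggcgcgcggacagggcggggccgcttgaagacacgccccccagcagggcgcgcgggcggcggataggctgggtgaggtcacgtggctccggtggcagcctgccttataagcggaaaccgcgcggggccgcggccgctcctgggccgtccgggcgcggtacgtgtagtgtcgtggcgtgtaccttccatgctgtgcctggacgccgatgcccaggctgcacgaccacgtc
Lss: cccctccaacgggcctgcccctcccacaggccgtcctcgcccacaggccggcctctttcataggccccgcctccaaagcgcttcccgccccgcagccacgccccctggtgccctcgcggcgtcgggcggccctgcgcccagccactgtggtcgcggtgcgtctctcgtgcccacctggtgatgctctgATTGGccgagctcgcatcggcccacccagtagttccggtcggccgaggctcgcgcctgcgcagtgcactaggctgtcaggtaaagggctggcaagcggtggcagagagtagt
Srebf2: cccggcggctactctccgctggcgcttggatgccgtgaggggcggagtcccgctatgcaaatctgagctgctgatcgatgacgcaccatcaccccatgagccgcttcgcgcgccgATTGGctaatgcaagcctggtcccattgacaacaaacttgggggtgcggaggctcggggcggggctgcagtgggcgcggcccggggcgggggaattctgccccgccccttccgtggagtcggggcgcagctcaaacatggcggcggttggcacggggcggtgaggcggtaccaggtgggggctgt
The exact sterol element was found in Hmgcs1 alone among these 6 genes, with its first base 137 bases before the start, and 1.24% of 32851 mouse promoters of the same length held one. With 1 mismatch allowed, Insig1, Srebf2 and 1 of the 3 starts listed for Dhcr7 also held a match, as did 24.2% of all promoters. Hmgcs1 held 4 CCAAT boxes, and 1.06% of promoters held that many or more. Idi1 held 2, and Insig1, Lss and Srebf2 held 1 each, against 37.4% of promoters with at least 1. A match of letters is a description of the sequence and not a measured binding site.

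The libraries held between 29248557 and 37915576 reads on the listed genes, and 1 read was worth 0.0274 to 0.0333 CPM, the share of a library's reads that fell on a gene, scaled to a common total. Depth followed training: Basal libraries held 29248557 to 31509208 reads and trained ones 31830344 to 37915576. By the study's mapping statistics, the mapped share was lower in every Basal library than in every RL or KO_OL library. WT_OL replicates 1 and 2 lay near Basal and replicate 3 among the RL libraries. Whether library quality bears on the training differences was not tested. Values are log2(CPM + 1) of counts normalised by the TMM method, differences are between group means on that scale, and a gene is said to have risen or fallen where the adjusted p of limma was under 0.05. Statements that groups do or do not overlap only describe the values, since the share of all genes that separate was not counted. Where a call is said to be lost without several libraries, each was left out on its own. Ccny, the targeted gene, was read first: its value lay between 6.75 and 7.32 in the 9 WT libraries and between 6.23 and 6.60 in the 9 KO libraries, which do not overlap. The KO libraries thus held 0.607 of the WT level (difference -0.72, SE 0.061, limma adjusted p = 3.31e-05), and reads of Ccny remained in every one of them. Markers of 6 cell types were measured in every library, none at 0, and pyramidal and granule neuron markers summed to 5680 to 7590 CPM. Choroid plexus markers, such as Ttr, varied most: their sum lay between 49.6 CPM in WT_RL replicate 1 and 8720 CPM in WT_RL replicate 3, and in KO_Basal it lay between 56.9 and 696 CPM. In bulk tissue, fewer cells of a type and less RNA per cell cannot be told apart.

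Compared per kilobase of the longest coding transcript, Hmgcs1 was the most abundant of the 8 genes, at 86.3 CPM per kb over the 18 libraries, with a range of 68.9 to 107. Srebf2 followed at 39.6 CPM per kb, from 31.9 to 45.7, and did not overlap Hmgcs1. Sqle, Fdft1 and Insig1 had means of 25.0, 24.8 and 24.4 CPM per kb, with ranges that overlapped one another. Dhcr7 had 13.1, Lss 9.08 and Idi1 5.83 CPM per kb. The ranges of Lss and Idi1 overlapped, with a highest Idi1 library at 8.25 and a lowest Lss library at 7.06 CPM per kb.

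**Figure D1:**
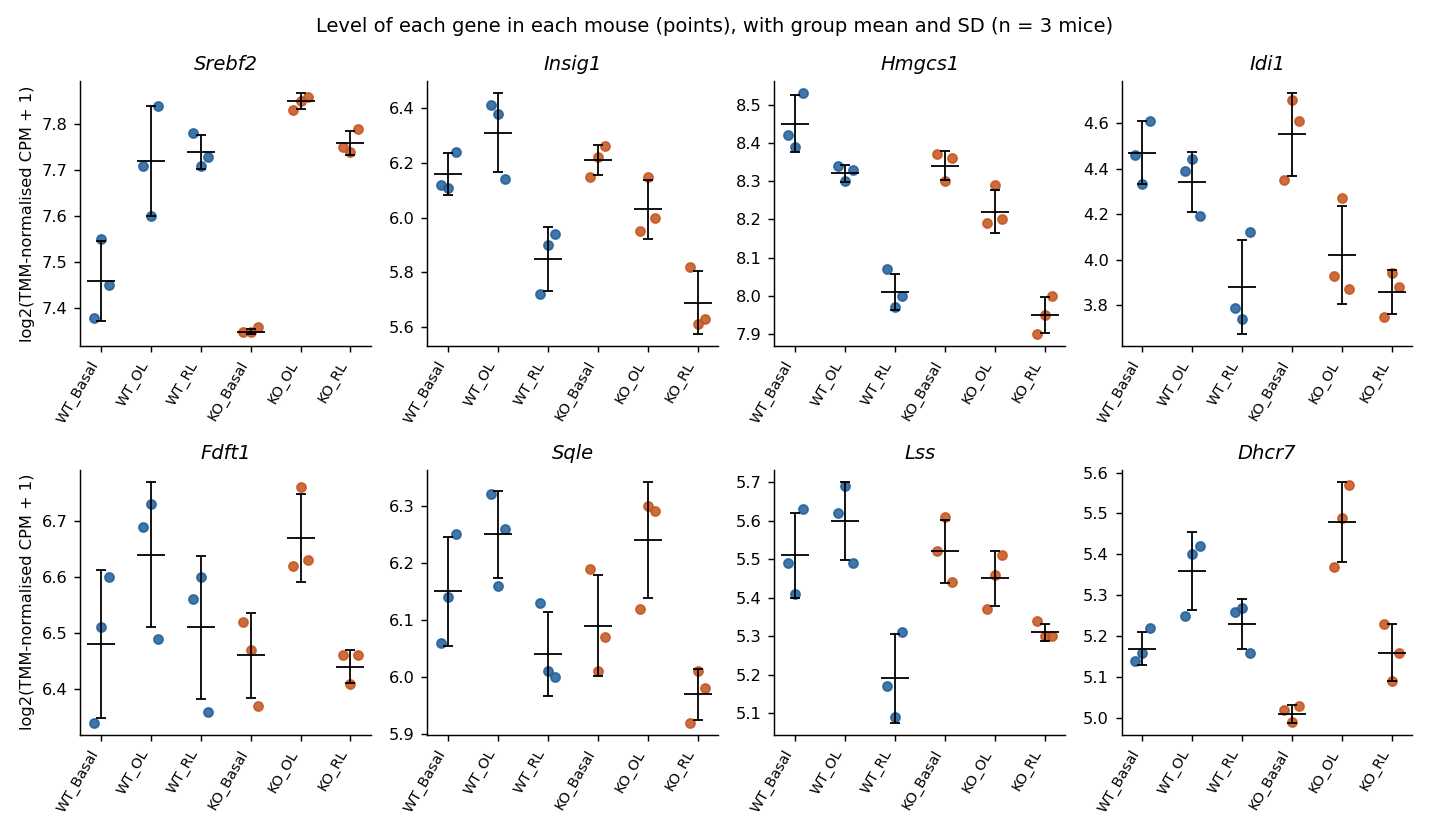
Level of the 8 genes in each mouse, as log2(TMM-normalised CPM + 1) on axes that differ between panels and do not start at 0; points are mice (blue WT, orange KO), bars the group mean and SD of 3 mice. Hmgcs1, Idi1 and Insig1 were lower in all 6 RL mice than in any Basal mouse, and Srebf2 was higher in all 12 trained mice than in any untrained mouse. The share of all genes that separate in these ways was not counted.

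Of the 2 regulators among the 8 genes, Srebf2, the gene of SREBP-2, was higher in trained than in untrained mice. In WT mice it read 7.38, 7.55 and 7.45 in WT_Basal, 7.71, 7.60 and 7.84 in WT_OL, and 7.78, 7.71 and 7.73 in WT_RL. KO mice gave 7.35, 7.35 and 7.36 in KO_Basal, 7.83, 7.85 and 7.86 in KO_OL, and 7.75, 7.74 and 7.79 in KO_RL. Every trained mouse of either genotype was above every untrained mouse, and the 3 KO_Basal values were the lowest of the 18. Srebf2 rose by 0.25 (SE 0.064) in WT mice and by 0.49 (SE 0.064) in KO mice with original learning, at limma adjusted p = 0.0215 and 9.18e-05. After reversal learning it was still higher than in untrained mice, by 0.28 in WT and 0.41 in KO mice (limma adjusted p = 0.00867 and 0.000389), and the step from original to reversal learning gave 0.027 and -0.083 (adjusted p = 0.858 and 1.0). The WT change with original learning lost its call without WT_Basal replicate 1 (0.21, limma adjusted p = 0.104), without WT_Basal replicate 3 (0.25, adjusted p = 0.0792) and without WT_OL replicate 1 (0.25, adjusted p = 0.0532), and the WT change with reversal learning did so without WT_Basal replicate 1 (0.24, adjusted p = 0.0528). A correction for the GC content of transcripts, described with its values further on, ended both WT calls and neither KO call.

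Insig1, whose product retains SCAP and SREBP-2 in the endoplasmic reticulum and is itself a target of SREBP-2, had its lowest values after reversal learning. WT mice read 6.12, 6.11 and 6.24 in WT_Basal, 6.41, 6.38 and 6.14 in WT_OL, and 5.72, 5.90 and 5.94 in WT_RL. The KO values were 6.15, 6.22 and 6.26 in KO_Basal, 5.95, 6.15 and 6.00 in KO_OL, and 5.82, 5.61 and 5.63 in KO_RL. All RL mice were below all Basal and OL mice of their genotype, while OL and Basal mice overlapped. From original to reversal learning Insig1 fell by 0.46 in WT mice (SE 0.088, limma adjusted p = 0.0405), and the KO difference was -0.35 (SE 0.088, adjusted p = 0.329). Against untrained mice it fell by 0.31 in WT_RL and by 0.52 in KO_RL (limma adjusted p = 0.0273 and 0.000682), to 0.809 and 0.697 of the untrained level. The WT_RL call against WT_Basal was lost without WT_Basal replicate 1 (-0.33, limma adjusted p = 0.0614), without WT_Basal replicate 3 (-0.26, adjusted p = 0.114) and without WT_RL replicate 1 (-0.24, adjusted p = 0.106).

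Hmgcs1, the enzyme that condenses acetyl-CoA units into HMG-CoA, was lowest after reversal learning in both genotypes. In WT_Basal it read 8.42, 8.39 and 8.53, in WT_OL 8.34, 8.30 and 8.33, and in WT_RL 8.07, 7.97 and 8.00. For KO mice the values were 8.37, 8.30 and 8.36 in KO_Basal, 8.19, 8.29 and 8.20 in KO_OL, and 7.90, 7.95 and 8.00 in KO_RL. Within each genotype no 2 of the 3 training states overlapped. Against untrained mice Hmgcs1 fell by 0.43 in WT_RL and by 0.39 in KO_RL (SE 0.06 for both, limma adjusted p = 0.000325 and 0.000326), to 0.740 and 0.762 of the untrained level. The smaller differences of OL against Basal, -0.12 in both genotypes, did not pass (limma adjusted p = 0.206 and 0.162), and a correction for GC content turned their direction, to 0.03 in WT and 0.02 in KO mice. From original to reversal learning Hmgcs1 fell by 0.31 in WT mice (limma adjusted p = 0.0406) and differed by -0.27 in KO mice (adjusted p = 0.198).

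Idi1, the isomerase that interconverts the isoprenoid building blocks, had the lowest level of the 8 genes and fell after reversal learning in both genotypes. WT mice read 4.46, 4.33 and 4.61 in WT_Basal, 4.39, 4.44 and 4.19 in WT_OL, and 3.79, 3.74 and 4.12 in WT_RL. KO mice read 4.35, 4.70 and 4.61 in KO_Basal, 3.93, 4.27 and 3.87 in KO_OL, and 3.75, 3.94 and 3.88 in KO_RL. All KO_OL mice lay below all KO_Basal mice, whereas WT_OL and WT_Basal mice overlapped, and all RL mice lay below the untrained mice of their genotype. Idi1 fell by 0.58 in WT_RL and by 0.69 in KO_RL against untrained mice (SE 0.13, limma adjusted p = 0.00704 and 0.00148), to 0.667 and 0.619 of the untrained level. The GC correction took the WT_RL value of Idi1 to -0.41 (adjusted p = 0.0546). With original learning it fell by 0.53 in KO mice (limma adjusted p = 0.00812) and differed by -0.13 in WT mice (adjusted p = 0.58), and the GC correction took the KO value to -0.34 and ended that call (adjusted p = 0.0725). The difference between these changes was -0.40 (95% interval -0.79 to -0.013, limma adjusted p = 0.396), so a genotype difference was not called.

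Of the enzymes that make squalene and its epoxide, neither passed in a training comparison within 1 genotype. Fdft1 passed in an average over genotype that is given further on. Fdft1, squalene synthase, read 6.34, 6.51 and 6.60 in WT_Basal, 6.69, 6.73 and 6.49 in WT_OL, and 6.56, 6.60 and 6.36 in WT_RL. In the KO groups it read 6.52, 6.47 and 6.37 at Basal, 6.62, 6.76 and 6.63 at OL, and 6.46, 6.41 and 6.46 at RL. The KO_OL mice were above both other KO groups and all WT groups overlapped, and no Fdft1 difference within 1 genotype passed the test, the nearest being 0.22 for KO_OL against KO_Basal (limma adjusted p = 0.0745). Sqle, squalene epoxidase, read 6.06, 6.14 and 6.25 in WT_Basal, 6.32, 6.16 and 6.26 in WT_OL, and 6.13, 6.01 and 6.00 in WT_RL. The KO mice read 6.19, 6.01 and 6.07 at Basal, 6.12, 6.30 and 6.29 at OL, and 5.92, 6.01 and 5.98 at RL. In both genotypes every RL mouse was below every OL mouse, by -0.20 in WT and -0.27 in KO mice on the mean (limma adjusted p = 0.218 and 0.425), which did not pass.

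Lss, which cyclises squalene epoxide to lanosterol, fell with reversal learning in WT mice. It read 5.49, 5.41 and 5.63 in WT_Basal, 5.62, 5.69 and 5.49 in WT_OL, and 5.17, 5.09 and 5.31 in WT_RL. KO mice read 5.52, 5.61 and 5.44 in KO_Basal, 5.37, 5.46 and 5.51 in KO_OL, and 5.34, 5.30 and 5.30 in KO_RL. The RL mice were the lowest of both genotypes without overlap, and Basal and OL mice overlapped. Against WT_Basal it fell by 0.32 in WT_RL (SE 0.079, limma adjusted p = 0.012) and from WT_OL to WT_RL by 0.41 (adjusted p = 0.0406), and in KO_RL the difference from KO_Basal was -0.21 (adjusted p = 0.0622). The first of these calls was lost without WT_Basal replicate 3 (-0.26, limma adjusted p = 0.0707) and without WT_RL replicate 2 (-0.27, adjusted p = 0.0554).

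Dhcr7, which reduces 7-dehydrocholesterol to cholesterol, rose with original learning in KO mice. The WT values were 5.14, 5.16 and 5.22 in WT_Basal, 5.25, 5.40 and 5.42 in WT_OL, and 5.26, 5.27 and 5.16 in WT_RL. In KO mice they were 5.02, 4.99 and 5.03 in KO_Basal, 5.37, 5.49 and 5.57 in KO_OL, and 5.23, 5.09 and 5.16 in KO_RL. The OL mice were above the Basal mice without overlap in both genotypes, and the KO_RL mice lay between the other 2 KO groups. Dhcr7 rose by 0.46 in KO_OL against KO_Basal (SE 0.069, limma adjusted p = 0.000269), a 1.38-fold rise that held without any single library. In WT_OL against WT_Basal the difference was 0.19 (SE 0.069, limma adjusted p = 0.0995).

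Counted by comparison, 1 of the 8 genes rose in WT_OL against WT_Basal (Srebf2) and 0 fell, against 3.88% of all 15329 genes that rose and 5.62% that fell. In KO_OL against KO_Basal Srebf2 and Dhcr7 rose and Idi1 fell, against 11.2% and 12.3% of all genes. The median difference of the 8 genes was 0.12 in WT and 0.04 in KO mice, and that of all genes was at most 0.007 from 0 in either genotype. Of 13 other enzymes of cholesterol synthesis, Mvd, which makes isopentenyl diphosphate, rose in WT_OL by 0.36 (limma adjusted p = 0.0292). In KO_OL Fdps, which makes farnesyl diphosphate, rose by 0.29 and Ebp, a sterol isomerase, by 0.36 (adjusted p = 0.0247 and 0.0344), and Sc5d, a sterol desaturase, fell by 0.20 (adjusted p = 0.0295). The medians of the 13 enzymes were 0.14 in WT and -0.00 in KO mice. Mvd lost its call without any one WT_Basal library or WT_OL replicate 2 (adjusted p of up to 0.12). Ebp lost its call without KO_Basal replicate 1 or KO_OL replicate 2 or 3 (up to 0.169). Fdps did so without KO_Basal replicate 2 or 3 or any one KO_OL library (up to 0.0864). Sc5d did so without any one of the 6 KO_Basal and KO_OL libraries (up to 0.0961). The GC correction ended all 4 calls: Mvd went to 0.20, Ebp to 0.30, Fdps to 0.24 and Sc5d to -0.05 (adjusted p = 0.285, 0.0757, 0.0886 and 0.623).

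Of 12 genes of cholesterol uptake and intracellular transport, 1 passed in KO_OL, where 11.2% of all genes rose and 12.3% fell. This was Mylip, which encodes a ubiquitin ligase and fell by 0.32 (limma adjusted p = 0.0195). In WT_OL its difference was -0.24 (adjusted p = 0.114). The medians of the 12 genes were 0.05 in WT_OL and 0.12 in KO_OL. Mylip read 4.50, 4.72 and 4.60 in WT_Basal, 4.39, 4.25 and 4.46 in WT_OL, and 4.53, 4.43 and 4.45 in WT_RL. KO mice read 4.50, 4.50 and 4.65 at Basal, 4.33, 4.27 and 4.06 at OL, and 4.23, 4.41 and 4.47 at RL. The OL mice were below the Basal mice of their genotype without overlap, and OL and RL mice overlapped. Against untrained mice Lrp1, a receptor for apolipoprotein E, rose by 0.50 in KO_RL, and Stard4, which carries sterol between membranes, fell by 0.30 (limma adjusted p = 0.0284 and 0.0433). In that comparison 11.6% of all genes rose and 12% fell. Lrp1 lost its call without KO_Basal replicate 1 or 2 or any KO_RL library, and Stard4 without any one of the 6 libraries (adjusted p of up to 0.112 and 0.13). The GC correction ended both calls as well, with Lrp1 at 0.39 and Stard4 at -0.21 (adjusted p = 0.122 and 0.117). The call of Mylip was lost without KO_Basal replicate 3 or KO_OL replicate 3, with an adjusted p of up to 0.105.

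**Figure D2:**
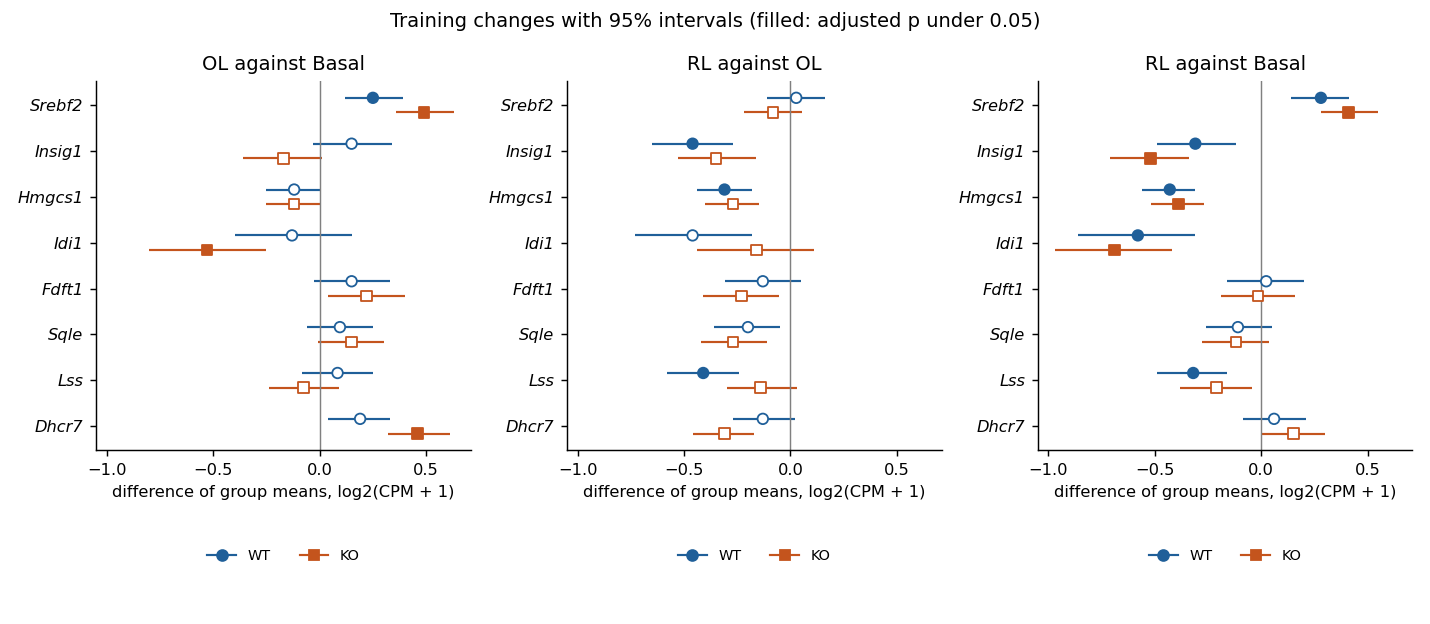
Difference of group means in log2(CPM + 1) for the 8 genes, with 95% intervals from limma, for WT (blue circles) and KO mice (orange squares); filled symbols have an adjusted p under 0.05. Reversal learning against Basal gave 5 filled symbols in WT and 4 in KO mice, and reversal against original learning gave 3 in WT and 0 in KO mice.

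From original to reversal learning most of the sterol genes had a difference below 0, and few of them passed the test. In WT mice 3 of the 8 genes (Hmgcs1, Insig1 and Lss) fell over this step and 0 rose, against 0.157% of all genes that fell and 0.104% that rose. The differences were below 0 for 7 of the 8 genes in WT mice and for 8 of 8 in KO mice, with medians of -0.26 and -0.25, while 48.4% and 49.8% of all genes were below 0 and the medians of all genes were 0.007 and 0.001. In KO mice limma called 0 of the 8 genes, against 0.0196% of all genes in either direction. At an unadjusted p under 0.05 there were 5 (Hmgcs1, Insig1, Fdft1, Sqle and Dhcr7), against 737 of all 15329 genes. Limma with voom weights on the recovered reads called 0 of the 8. Among the 13 other enzymes 12 were below 0 in each genotype, with medians of -0.20 in both, and Cyp51, the demethylase that acts on lanosterol, passed in WT mice (fell by 0.37, limma adjusted p = 0.0369), but not without WT_OL replicate 1 or 2 or without any of the WT_RL libraries (adjusted p of up to 0.155). The OL mice enter both this comparison and that of original learning with untrained mice, and the Basal mice enter both comparisons with untrained mice, so the values of each are given on their own and no relation between them is drawn.

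These 3 WT calls rested on a joint estimate of the spread and on single libraries. With only WT_OL and WT_RL in the fit limma called 0 of the 8 genes, and the 3 adjusted p were 0.796. Hmgcs1 lost its call without WT_OL replicate 1 (-0.30, adjusted p = 0.164) or 2 (-0.32, adjusted p = 0.0776) and without WT_RL replicate 2 (-0.29, adjusted p = 0.129) or 3 (-0.30, adjusted p = 0.0954). Insig1 lost it without WT_OL replicate 1 (-0.41, adjusted p = 0.179) or 2 (-0.43, adjusted p = 0.16) and without WT_RL replicate 1 (-0.39, adjusted p = 0.0766) or 2 (-0.48, adjusted p = 0.0983). For Lss the same 4 libraries were involved, with differences of -0.40, -0.36, -0.40 and -0.36 (adjusted p = 0.164, 0.161, 0.0656 and 0.137). Idi1 passed in 1 case, without WT_OL replicate 3 (-0.53, limma adjusted p = 0.0264).

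Averaged over genotype, a comparison added after the values were seen, the same 3 genes fell from original to reversal learning: Insig1 by 0.40, Hmgcs1 by 0.29 and Lss by 0.27 (limma adjusted p = 0.00634, 0.0042 and 0.0465). All 8 genes and all 13 other enzymes were below 0 in this average, with medians of -0.25 and -0.18, where 47.5% of all genes were. Of all genes 0.144% fell and 0.209% rose. Among the other enzymes Mvd, Cyp51 and Msmo1 also fell, by 0.43, 0.31 and 0.27 (adjusted p = 0.00881, 0.00634 and 0.0313). Hmgcs1 and Insig1 kept their call when any single library was left out, with adjusted p of at most 0.0192 and 0.0266, whereas Lss lost it without any one of WT_OL replicates 1 and 2, WT_RL replicates 1 and 2 and the 6 KO_OL and KO_RL libraries (differences of -0.25 to -0.29, adjusted p of 0.0623 to 0.13). Without WT_OL replicate 3, Sqle (-0.23, limma adjusted p = 0.0366) and Dhcr7 (-0.20, adjusted p = 0.0418) passed as well, and without WT_RL replicate 1 Sqle did (-0.26, adjusted p = 0.0472). Of the other enzymes Cyp51 and Mvd kept their call without any single library, while Msmo1 lost it without WT_OL replicate 1 or 2, WT_RL replicate 1 or 3, KO_OL replicate 2 or 3 or any KO_RL library (adjusted p of up to 0.099). In the average of original learning against Basal, 3 genes rose (Srebf2 by 0.37, Dhcr7 by 0.33 and Fdft1 by 0.19) and 2 fell (Idi1 by 0.33 and Hmgcs1 by 0.12), against 13.4% and 15.3% of all genes. The Hmgcs1 call was lost without WT_Basal replicate 1 or 3, WT_OL replicate 1, KO_Basal replicate 1 or 3 or KO_OL replicate 1 or 3 (-0.14 to -0.10, adjusted p of up to 0.116), and the Fdft1 call without WT_Basal replicate 1, WT_OL replicate 1 or 2, KO_Basal replicate 3 or KO_OL replicate 2 (0.15 to 0.22 over all left-out libraries, adjusted p of up to 0.086). The GC correction ended 3 of these 5 calls, with Idi1 at -0.14, Fdft1 at 0.13 and Hmgcs1 turned to 0.02 (adjusted p = 0.307, 0.172 and 0.762), and kept those of Srebf2 and Dhcr7 (0.24 and 0.25, adjusted p = 0.0103 and 0.00182).

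**Figure D3:**
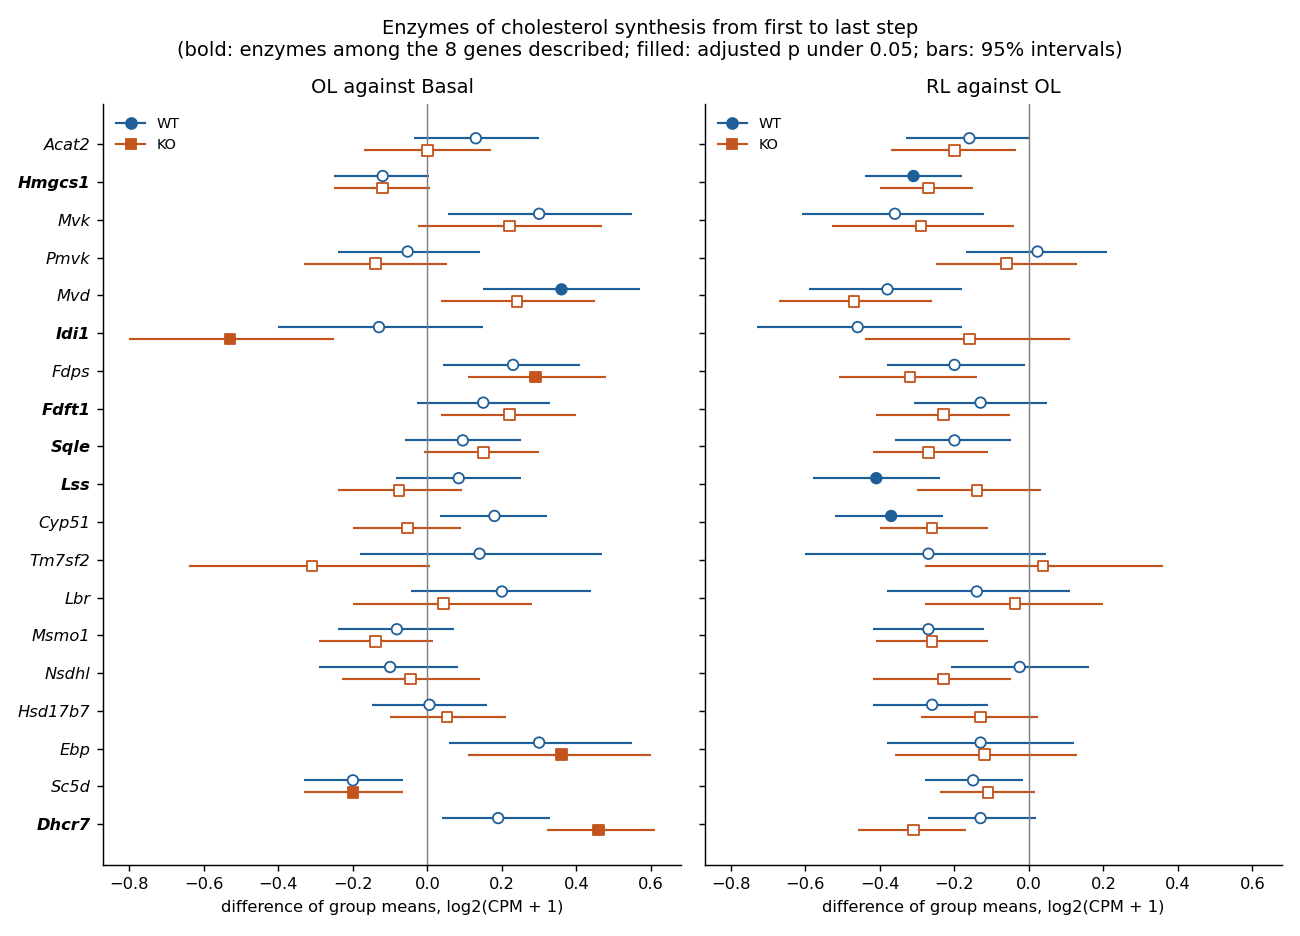
The 6 enzymes among the 8 genes and 13 other enzymes of cholesterol synthesis, from acetyl-CoA (top) to cholesterol (bottom), as differences of group means in log2(CPM + 1) with 95% intervals; blue circles are WT, orange squares KO, filled symbols have an adjusted p under 0.05 and bold names are among the 8 genes. With original learning the enzymes lay on both sides of 0, from Idi1 to Dhcr7 in KO mice, and from original to reversal learning nearly all lay below 0.

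Against untrained mice, Srebf2 rose and Hmgcs1, Idi1, Insig1 and Lss fell in WT_RL, where 8.28% of all genes rose and 7.42% fell. In KO_RL Srebf2 rose and Hmgcs1, Idi1 and Insig1 fell, where 11.6% rose and 12% fell. In both genotypes the gene of the transcription factor was higher while 3 genes of its known targets were lower than in untrained mice. With the GC correction this held in KO mice, while in WT mice Srebf2 (0.17, limma adjusted p = 0.216) and Idi1 (-0.41, adjusted p = 0.0546) no longer passed and Hmgcs1 and Insig1 did. The median difference of the 8 genes was -0.21 in WT and -0.17 in KO mice. Of the other enzymes, Msmo1, Sc5d and Hsd17b7 fell in WT_RL and Msmo1, Sc5d, Cyp51 and Nsdhl in KO_RL. Msmo1, a sterol demethylase, fell by 0.35 in WT_RL and by 0.40 in KO_RL (limma adjusted p = 0.00432 and 0.00115). Scap, the escort of SREBP-2, rose by 0.26 in WT_RL and by 0.37 in KO_RL (adjusted p = 0.0113 and 0.000615), and by 0.39 in KO_OL (adjusted p = 0.000406). Hsd17b7 lost its call without any WT_Basal library or WT_RL replicate 2 or 3, and Nsdhl without KO_Basal replicate 1 or 2 or KO_RL replicate 1 or 2 (adjusted p of up to 0.0891 and 0.133). The calls of Msmo1 and Sc5d, and that of Cyp51 in KO mice, were kept without any single library. The GC correction ended those of Msmo1 in WT_RL (-0.27, adjusted p = 0.0611), of Sc5d in WT_RL and KO_RL (-0.21 and -0.19, adjusted p = 0.0604 and 0.0512), of Hsd17b7 (-0.15, adjusted p = 0.257) and of Nsdhl (-0.25, adjusted p = 0.102), and kept those of Msmo1 and Cyp51 in KO_RL.

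Of 7 other regulators, Scap rose in KO_OL, KO_RL and WT_RL, and Rnf139, which encodes a sterol-sensing ubiquitin ligase, fell in all 4 comparisons of trained with untrained mice, by 0.29 to 0.48. Insig2 and Srebf1 passed in none of them: Insig2 differed by -0.12 to -0.019 and Srebf1 by 0.11 to 0.23. Scap in WT_RL lost its call without WT_Basal replicate 1 or 3, with an adjusted p of up to 0.0533. Rnf139 did so in WT_OL without any WT_Basal library or WT_OL replicate 2 and in WT_RL without WT_Basal replicate 1 or 2 or WT_RL replicate 2 (up to 0.113 and 0.0853). With the GC correction Scap in WT_RL went to 0.14 (adjusted p = 0.291), and Rnf139 to -0.09 in WT_OL, -0.21 in KO_OL and -0.11 in WT_RL (adjusted p = 0.605, 0.0601 and 0.353), which ended these 4 calls and left those of Scap in KO_OL and KO_RL and of Rnf139 in KO_RL.

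A trend of level with the GC content of transcripts differed between untrained and trained libraries, and the 8 genes lie at different points of it. The longest transcript of Srebf2 has a GC content of 57.9%, those of Dhcr7 and Fdft1 52.8% and 51.8%, those of Lss, Sqle and Insig1 48.7%, 48.6% and 48.2%, and those of Hmgcs1 and Idi1 43.1% and 41.9%. At the GC content of Srebf2 the fitted trend was -0.115 to -0.068 in the 6 Basal libraries and -0.036 to 0.145 in the 12 trained ones, and at that of Idi1 it was 0.091 to 0.143 and -0.165 to 0.031. After correction for this trend Srebf2 differed by 0.10 in WT_OL and 0.17 in WT_RL (limma adjusted p = 0.604 and 0.216), which ended both WT calls, and was still higher by 0.38 in KO_OL and 0.30 in KO_RL (adjusted p = 0.00752 and 0.0211). Hmgcs1 against Basal was -0.31 in WT_RL and -0.28 in KO_RL (adjusted p = 0.0108 and 0.00899), and Idi1 was -0.41 and -0.53 (adjusted p = 0.0546 and 0.0095), with -0.34 in KO_OL (adjusted p = 0.0725). In WT_OL and in KO_OL Hmgcs1 moved from -0.12 to 0.03 and 0.02. Insig1 and Lss, near the middle of the GC range, kept their values: Insig1 was -0.31 in WT_RL and -0.55 in KO_RL, and Lss was -0.34 and -0.25, the latter now called (adjusted p = 0.0382). From original to reversal learning the same 3 genes were called in WT mice after correction, Hmgcs1 at -0.34, Insig1 at -0.49 and Lss at -0.44 (adjusted p = 0.0353, 0.024 and 0.024). Whether the trend with GC content comes from the tissue or from library preparation was not tested.

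**Figure D4:**
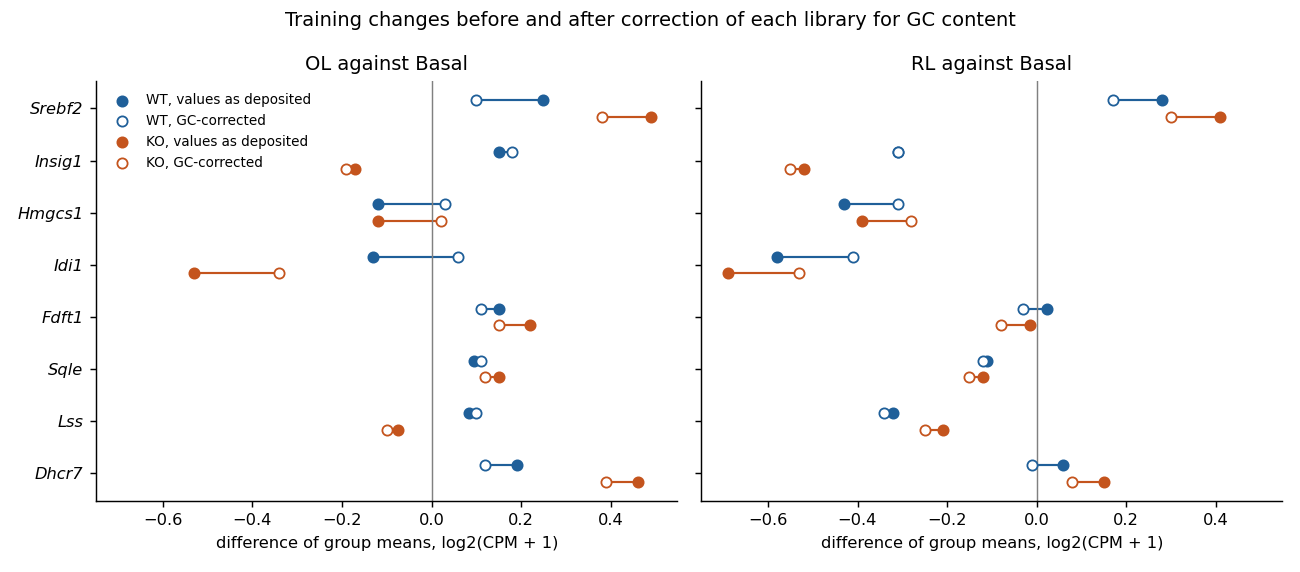
Differences from untrained mice of the same genotype in log2(CPM + 1), with values as deposited (filled) and after correction of each library for GC content (open), for WT (blue) and KO mice (orange). With the correction Idi1 moved from -0.58 to -0.41 in WT_RL and Srebf2 from 0.28 to 0.17, while Insig1 in WT_RL was -0.31 before and after.

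Markers of other cells moved in some of the same comparisons. From WT_OL to WT_RL 14 of 15 oligodendrocyte markers were below 0, with a median of -0.31, and their summed level was 8060 to 11600 CPM in WT_OL and 5340 to 9890 CPM in WT_RL. From KO_OL to KO_RL their median was -0.01, with sums of 5390 to 7180 and 5590 to 8260 CPM, while that of the 8 genes was -0.25. Astrocyte markers had medians of -0.05 and 0.04 in these 2 comparisons. Pyramidal and granule neuron markers had medians of 0.15 and 0.08, with 11 and 8 of 12 above 0 and none called. Against WT_Basal, where Srebf2 rose, 9 of 12 astrocyte markers were above 0 in WT_OL and 10 of 12 in WT_RL, each with a median of 0.26. Of these markers 4 and 3 were called higher, where 3.88% and 8.28% of all genes rose. Their summed level was 5590 to 6070 CPM in WT_Basal, 6890 to 8510 in WT_OL and 6660 to 8160 in WT_RL. In KO_OL and KO_RL against KO_Basal their medians were -0.10 and -0.06. In each of these 1 marker was called higher (Slc1a2) and 2 lower (S100b and Aqp4). Of all genes 11.2% and 11.6% rose and 12.3% and 12% fell. Microglia markers had 4 of 12 called lower in KO_OL and 5 in KO_RL, with 0 called higher and medians of -0.26 and -0.27. Endothelial markers had 3 of 10 called lower and 1 higher in each, with medians of -0.18 and -0.01. Choroid plexus markers were below 0 for 12 of 12 genes from WT_OL to WT_RL, with a median of -1.08, and 12 of 12 rose from KO_Basal to KO_OL, with a median of 3.08. In KO_RL against KO_Basal 10 of 12 rose, with a median of 2.79. Of all genes 11.2% and 11.6% rose in these 2 KO comparisons. In KO_Basal against WT_Basal 12 of 12 were below 0, with a median of -2.55 and none called. Activity-induced genes such as Fos had a median of 1.07 in WT_OL against WT_Basal, where 11 of 14 rose, and of -0.67 from WT_OL to WT_RL. In KO_OL against KO_Basal their median was 0.33, where 5 of 14 rose and 1 fell, and from KO_OL to KO_RL it was -0.05. In none of these lists was a gene at 0 in any library, and their part in the changes of the sterol genes was not tested.

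Between genotypes, none of the 8 genes passed in any training state. Limma called 0 of them in KO_Basal against WT_Basal, 0 in KO_OL against WT_OL and 0 in KO_RL against WT_RL, where 0.0196%, 0.0652% and 0% of all genes passed. At an unadjusted p under 0.05 there were 1 (Dhcr7), 2 (Idi1 and Insig1) and 0 genes, against 613, 2764 and 756 of all 15329 genes. Voom on the recovered reads called 0 of the 8 genes in each. Averaged over training the count was 0, against 0.0326% of all genes, and 0 by voom. At an unadjusted p under 0.05 it was 2 (Hmgcs1 and Insig1), against 1281 of all 15329 genes. Insig1 was the gene with the largest average difference, -0.13 (95% interval -0.24 to -0.021, limma adjusted p = 0.521), and Hmgcs1 followed at -0.09 (-0.16 to -0.017, adjusted p = 0.515). For the other 6 genes the 95% intervals of the average lay within -0.24 and 0.091, so that larger average differences between genotypes lie outside them.

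Nor did the training changes differ between genotypes by the test of the difference itself. Limma called 0 of the 8 genes for the change with original learning and 0 for the change from original to reversal learning, and 0% of all genes in both. At an unadjusted p under 0.05 the first gave 4 genes, against 1908 of all 15329 genes, and voom called 0 of the 8. Insig1 (-0.33, 95% interval -0.59 to -0.066) and Idi1 (-0.40) had a change in KO mice below that in WT mice, and Dhcr7 (0.28, interval 0.07 to 0.49) and Srebf2 (0.24, interval 0.05 to 0.44) one above it, with adjusted p from 0.388 to 0.396. The second gave 1, Lss (0.27, interval 0.035 to 0.51, adjusted p = 0.581), against 1224 of all genes, and voom called 0 of the 8. Without WT_OL replicate 3, in which Insig1 (6.14) was the lowest and Srebf2 (7.84) the highest of the WT_OL mice, both genes passed: Insig1 was -0.36 in KO_OL against WT_OL (limma adjusted p = 0.0158) and -0.41 in the difference of changes (adjusted p = 0.0497), and Srebf2 was 0.19 (adjusted p = 0.0471) and 0.30 (adjusted p = 0.0467). Oligodendrocyte markers were lower in KO than in WT libraries for 15 of 15 genes on average, with a median of -0.35 and none called. For the genotype difference in the change with original learning their median was 0.01, while 11 of 12 astrocyte markers (median -0.36), 11 of 12 microglia markers (-0.28) and 10 of 10 endothelial markers (-0.34) were below 0 and 12 of 12 choroid plexus markers (3.04) above 0, none of them called. The part of these cells in the genotype values was not tested.

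**Figure D5:**
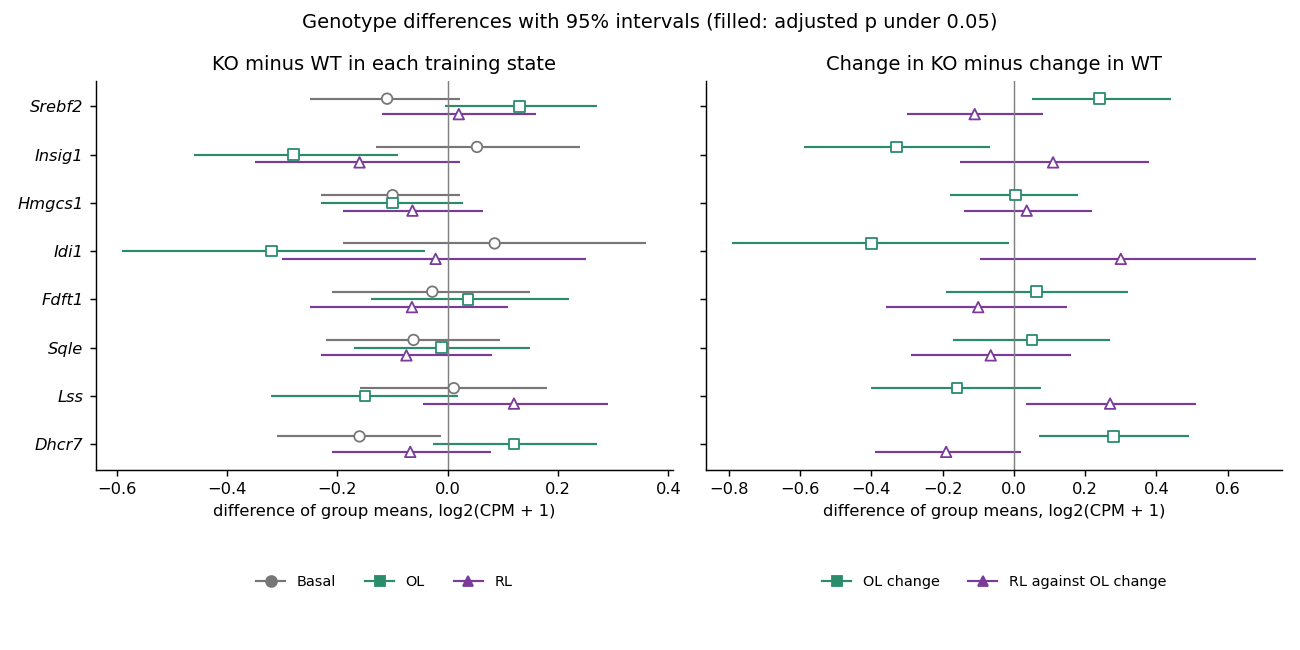
Left, KO minus WT in each training state, and right, the training change in KO minus that in WT, for the 8 genes in log2(CPM + 1) with 95% intervals; all symbols are open because no adjusted p was under 0.05. On the right Insig1 and Idi1 lay below 0 and Srebf2 and Dhcr7 above 0 for the change with original learning.

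Across the 18 libraries the 8 genes fell into unlike patterns. Hmgcs1, Idi1, Insig1 and Lss correlated with one another at Pearson r between 0.77 and 0.84, Srebf2 correlated with Idi1 at -0.77 and with Dhcr7 at 0.73, and Hmgcs1 and Dhcr7 at -0.04. With the group means removed the first 4 genes gave r between 0.03 (Hmgcs1 with Insig1) and 0.60 (Idi1 with Lss), and Hmgcs1 with Sqle gave 0.74. The libraries share their groups and normalisation, so these are descriptions. Among the genes reported here, the 10 others whose values followed the mean of the 8 standardised genes most closely over the 18 libraries were Cyp51 (r = 0.841), Dbp (0.806), Fbxo16 (0.798), Mvd (0.787), Mypn (0.781), Ciart (0.768), Galk1 (0.759), Idh1 (0.757), Stard4 (0.745) and Sytl2 (0.742). Of these Cyp51 and Mvd are enzymes of the same pathway, Stard4 carries cholesterol, and Dbp and Ciart are output genes of the circadian clock. With group means removed the 10 closest were Cobl (0.839), Arhgap25 (0.822), Cldn12 (0.797), Cox11 (0.779), Gm16894 (0.760), Hebp2 (0.743), Mettl25 (0.739), Otud1 (0.721), AI987944 (0.714) and Fam43a (0.707), and none of the 10 was in both sets.

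Exons of Hmgcs1, Idi1, Fdft1 and Lss overlap exons of a gene on the other strand (Gm48342, Gm48574, Ctsb and 4930483K19Rik), and the sources used here do not say whether counting used the strand, so their values are less certain in that respect. The genes lie on GRCm38 at chr15:82147181-82205379 (Srebf2), chr5:28071363-28078662 (Insig1), chr13:119690379-119708260 (Hmgcs1), chr13:8885501-8892451 (Idi1), chr14:63145150-63179578 on the - strand (Fdft1), chr15:59315077-59331192 (Sqle), chr10:76531588-76557138 (Lss) and chr7:143823145-143848410 (Dhcr7), all protein-coding and on the + strand but for Fdft1. Counts were over whole genes, so introns, exons and untranslated parts were not told apart.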

How the data were processed

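Hippocampal RNA of 18 mice was sequenced from poly-A libraries (stranded kit per the labels). The authors aligned reads to mm10 with STAR 2.5.1, counted them per gene and normalised them by TMM in edgeR 3.12.1. The deposited values are log2 CPM of 15329 genes; the values match log2(CPM + 1). In every library 100% of values came out as whole reads within 0.1 read, giving 29248557 to 37915576 reads, median 32801079. These libraries differed by more than sampling noise within each group.

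The deposited log2 values were fitted with limma 3.58.1 (R 4.3.3; one mean per group, all 18 libraries, trended empirical Bayes), two-sided, with Benjamini-Hochberg adjustment over 15329 genes and a threshold of 0.05. With 3 mice against 3, an exact permutation test of a single gene cannot go below p = 0.1, so none was used. Whether the libraries of a group come from separate litters is not stated. The code was tested on simulated data. Positions and GC content are from GENCODE M21, matched for 99.4% of genes.

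Members and lists were chosen with earlier results of these data known. Named are all 8 genes, up to 30 called sterol and lipid genes by size of change, a few others whatever their result, the 10 most alike genes under each measure, and Ccny. Some genes of the lists are not reported here and were left out of list counts. Alternatives were plain CPM, median-of-ratios size factors, a pseudocount of 0.25, a filter on low values, voom on the recovered reads, the compared groups only, GC correction, the replicate number as a block and each library left out. Averages over genotype and the block with GC correction were added after values were seen.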

Additional observations from a re-analysis of the deposited data

How the results depend on the processing

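Of 408 values of the 24 called changes of the 8 genes under the alternatives, 332 kept their call and direction, 74 kept the direction only and 2 reversed: Hmgcs1 with original learning averaged over genotype was 0.02 with GC correction and 0.02 with GC correction and the replicate block. The count of called genes was 1 for WT_OL against WT_Basal and 0 with the compared groups only, with GC correction and with GC correction and block, and 0 to 1 without single libraries. For WT_RL against WT_OL it was 3, and 0 with the compared groups only, 0 with the replicate block and 0 to 4 without single libraries. For WT_RL against WT_Basal it was 5, and 3 with the compared groups only, with GC correction, and with GC correction and block, and 3 to 5 without single libraries. Averaged over genotype, original learning gave 5, 2 with GC correction and with GC correction and block, and 3 to 5 without single libraries, and reversal against original learning gave 3, 1 with the compared groups only, and 2 to 5 without single libraries. For KO_OL against WT_OL and for the genotype difference in the change with original learning the count was 0, and 0 to 2 without single libraries. Where fewer groups enter, fewer libraries estimate the spread; for the other settings the cause was not tested.

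The replicate numbers are shared between groups, and the deviations of same-numbered mice correlated at -0.639 to 0.548. With 3 mice per group these correlations cannot decide whether the numbers pair the mice. With the replicate block 0 genes were called for WT_RL against WT_OL in place of 3. Library quality weights were not used, since their estimate gave WT_OL replicate 1 a weight of 301 and the other libraries 0.118 to 4. Idi1, the lowest of the 8 genes, had 12.4 to 25.0 CPM, and the number of mice, 3 per group, limits the precision.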

Other observations

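Of 12 fatty acid genes that are targets of SREBP-1, the relative of SREBP-2, 2 rose in WT_OL against WT_Basal, Fads2, a desaturase, by 0.47 and Acss2, which makes acetyl-CoA, by 0.21 (limma adjusted p = 0.00921 and 0.0474), where 3.88% of all genes rose. In KO_OL against KO_Basal 3 rose: Fasn, the fatty acid synthase, by 0.58, Acaca, acetyl-CoA carboxylase, by 0.38 and Acly, ATP citrate lyase, by 0.25 (adjusted p = 0.0024, 0.00105 and 0.0225), where 11.2% of all genes rose. Against untrained mice Acaca was also higher in WT_RL, by 0.27 (adjusted p = 0.0156), and Acaca and Fasn in KO_RL, by 0.34 and 0.52 (adjusted p = 0.00236 and 0.00473). Of all genes 8.28% rose in WT_RL and 11.6% in KO_RL. From original to reversal learning none of the 12 passed by limma in either genotype, with medians of 0.02 in WT and -0.09 in KO mice. Acaca in WT_RL lost its call without WT_Basal replicate 1 or WT_RL replicate 1 (adjusted p of up to 0.0555), Acly without KO_Basal replicate 2 or KO_OL replicate 2 or 3 (up to 0.0893), and Acss2 without WT_Basal replicate 1 or 3 or WT_OL replicate 1 or 2 (up to 0.201). With the GC correction limma no longer called Acly and Acss2 (0.18 and 0.25, adjusted p = 0.112 and 0.0959).

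Among 13 genes of cholesterol efflux, esterification and oxidation, Abcg1, which exports cholesterol, rose by 0.65 in KO_OL, by 0.43 in WT_RL and by 0.55 in KO_RL against untrained mice (limma adjusted p = 0.000615, 0.0138 and 0.00193), and the WT_RL call was lost without WT_Basal replicate 1 (adjusted p = 0.0556). In these comparisons 11.2%, 8.28% and 11.6% of all genes rose. Abcg4, a relative of Abcg1, rose by 0.36 in KO_OL (adjusted p = 0.0235), a call lost without KO_Basal replicate 1 or 2 or KO_OL replicate 1 or 3 (up to 0.0917). The GC correction ended the calls of Abcg1 in WT_RL and of Abcg4 (0.37 and 0.24, adjusted p = 0.0661 and 0.204). Abca1 and Apoe passed in none of the comparisons, and Cyp46a1, the enzyme that clears cholesterol from neurons, differed by 0.19 in WT_OL and 0.20 in KO_OL (adjusted p = 0.203 and 0.122). In the average of original learning against Basal over genotype, 6 of the 13 genes rose, Cyp46a1 among them, against 13.4% of all genes. Of 10 genes of the other branches that start from mevalonate, which make ubiquinone, dolichol and prenyl anchors, Nus1, Pggt1b and Rabggtb fell and Rabggta rose in WT_OL, and Pggt1b, Pdss1 and Rabggtb fell and Fntb rose in KO_OL, where 3.88% and 11.2% of all genes rose and 5.62% and 12.3% fell. After GC correction 7 of these 8 calls were lost, with adjusted p from 0.0757 for Pggt1b in KO_OL to 0.545 for Rabggtb in WT_OL, and that of Fntb was kept (0.25, adjusted p = 0.0297). The 4 WT_OL calls and that of Rabggtb in KO_OL were also lost when any one of 3 or 4 libraries was left out (adjusted p of up to 0.166). From original to reversal learning 0 of these 10 genes were called by limma in either genotype.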
